A study of Homo sapiens with 28 samples.

Results

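The data described here are the 8 libraries of CTCF-AID2 cells collected at 24 h, chosen by their titles from the 28 samples of the series: 4 libraries of cells treated with the auxin analog 5-Ph-IAA and 4 libraries of cells without it. SEM is an established human cell line of B-cell acute lymphoblastic leukemia with the MLL-AF4 fusion. In CTCF-AID2 cells both groups carried the same alleles: endogenous CTCF tagged with a degron and mClover3, a doxycycline-inducible wild-type OsTIR1 at AAVS1, and a lentiviral OsTIR1(F74G), the TIR1 variant that binds 5-Ph-IAA, with an EGFP-AID reporter driven by the MND promoter and an RFP marker. The untreated cells received vehicle (DMSO) by the study's methods and are titled as cells without auxin. The dose is given as 1 µM in the sample titles and as 10 µM for 24 h in the treatment protocol, and the labels do not settle which was used. The labels do not say that the replicates came from separate cultures, so the p-values below measure the spread between these samples, which may be technical. Total RNA from each was sequenced, and the comparison asked which transcripts were higher or lower after 24 h with 5-Ph-IAA.

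CTCF is a zinc finger protein that binds DNA at a long, well-defined sequence. It stops cohesin as cohesin extrudes chromatin loops, so that bound sites, read in a direction, become the borders of loops and of topologically associating domains; these borders can keep an enhancer away from a promoter on the other side. CTCF also binds within or just before many promoters, where it can bring a distal enhancer to the gene. The degron removes the protein and leaves its mRNA, so RNA levels do not show whether the protein was gone.

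The 8 libraries held 49.3 to 59.8 M gene counts each. Values are given as CPM, counts scaled to a common library size with TMM factors, with the SD over 4 libraries unless stated, and each fold change is limma-voom's log2 estimate of 5-Ph-IAA against none with its standard error and a p adjusted by Benjamini-Hochberg over the 13973 genes tested. The SEM identity was checked on marker lists: 13 of 15 B-ALL markers passed the filter, and their summed level was 1721 to 1761 CPM with 5-Ph-IAA and 1513 to 1537 CPM without. Of these 13, 8 were higher and 1 lower, while CD24, also on this list, had no count in any of the 8 libraries; the B-cell receptor component CD79A stood at 0.69 ± 0.041 and the surrogate light chain VPREB1 at 0.41 ± 0.036. Of 12 T and NK cell markers 2 passed the filter, TRAC (0.32 ± 0.031) and NKG7 (0.14 ± 0.04), with list sums of 78.8 to 84.1 against 66.3 to 70.1 CPM, and CD3D, CD3E, CD7 and TRBC2 had no count in any of the 8 libraries. A listed symbol that the annotation lacks would also read as no count here. Of 11 myeloid markers 4 passed, with sums of 36.0 to 39.4 against 41.0 to 42.7 CPM. Of 8 erythroid markers 0 passed, and of 7 stromal markers 1 did, PDGFRB. The level of PDGFRB was 85.2 to 86.6 CPM with 5-Ph-IAA and 78.3 to 85.5 CPM without. The part of these shifts in the results was not tested. On a principal component analysis of the 8 libraries, the first component (60.8% of the variance) separated treated from untreated cells. The second (10.8%) set treated library 4 and untreated library 1 apart from the other 6. Without these libraries, left out after the data were seen, 501 genes passed the threshold for a call used below, 471 of them among the 497 found with all 8.

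CTCF mRNA itself was higher with 5-Ph-IAA. Its level was 256, 250, 250 and 254 CPM in treated libraries 1 to 4 and 149, 151, 144 and 147 CPM in the untreated ones. The groups did not overlap, and the log2 fold change was 0.77 ± 0.024 (limma-voom, adjusted p = 6.96e-12). CTCF lies on chromosome 16, 67596370 to 67673080 (GRCh37).

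Changes were widespread and mostly small. Of 13973 genes, 8200 (58.7%) passed an adjusted p of 0.05, 4081 higher and 4119 lower, which is 29.2% and 29.5% of all genes tested. Of these, 7703 (93.9%) changed by less than 2-fold, and 78.0% by less than 1.41-fold. Genes that passed the adjusted p and changed at least 2-fold are termed called: 264 were called higher and 233 called lower, 1.89% and 1.67% of all genes tested. The median log2 fold change over all tested genes was -0.0024 and the median absolute change 0.18, with 99% of genes within 1.85. In 3635 genes (26.0%) every treated library was above every untreated one, and in 3712 (26.6%) every one was below. 

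**Figure D1:**
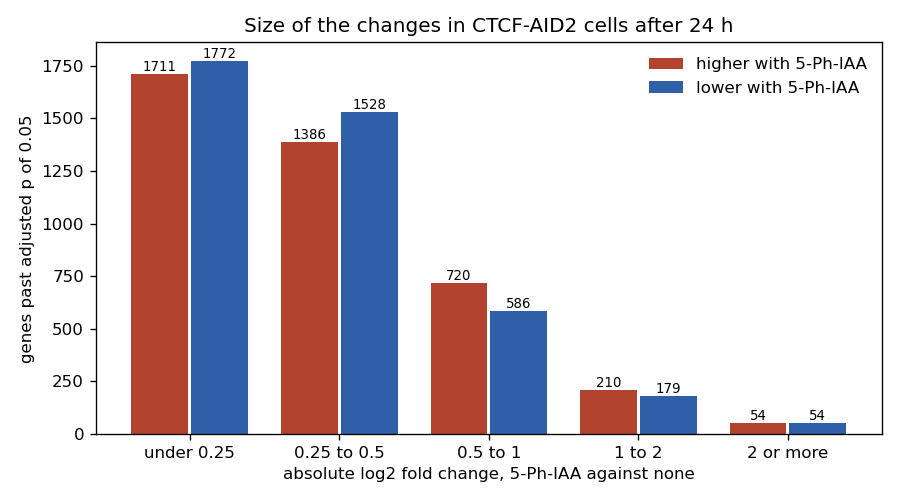
Number of genes past an adjusted p of 0.05 (vertical axis) by the absolute log2 fold change of 5-Ph-IAA against none (horizontal axis), red for genes higher and blue for genes lower. The bars under 0.25 hold 1711 and 1772 genes, and those of 2 or more hold 54 and 54.

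Calls were most frequent where the counts were lowest. Among 1937 genes with a mean of at least 100 CPM, 1275 passed the adjusted p and 9 were called higher and 1 lower, with a median standard error of 0.033 on the log2 scale. Among 864 genes under 1 CPM, 298 passed and 61 were called higher and 64 lower, with a median standard error of 0.21. The share of called genes was 0.516% at the high levels and 14.5% at the low levels. The genes called most often were those measured least precisely. A gene with a mean under 1 CPM passed the filter if at least 1 library stood above 1 CPM. Genes high in 1 group alone could thus enter, and the share at the low levels contains this choice.

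The called rises that follow the leading ones were mostly genes of low level in untreated cells. The 10 rises at ranks 11 to 20 had log2 fold changes of 2.93 to 3.78, and in all 10 the libraries of the groups did not overlap. The choice by fold change and adjusted p favors this. Of all tested genes, 26.0% were higher without overlap. NFAM1, a receptor with an activation motif that signals to NFAT in immune cells, stood at 8.74, 8.74, 8.35 and 8.67 CPM in treated libraries 1 to 4 and 0.696, 0.999, 0.918 and 1.03 CPM in untreated ones, a log2 fold change of 3.24 ± 0.11 (limma-voom, adjusted p = 1.35e-11). The treated values lay between 8.35 and 8.74 CPM, and the highest untreated one was 1.03. SLC27A2, a fatty acid transporter and very long-chain acyl-CoA synthetase, stood at 8.24, 7.51, 7.87 and 7.90 CPM against 1.15, 0.999, 0.979 and 0.850 CPM (2.99 ± 0.10). It overlaps ATP8B4 on the opposite strand, and reads of opposite strands may not have been kept apart. LGR5, a receptor for R-spondins in Wnt signaling, stood at 7.18, 7.69, 7.79 and 7.44 CPM against 0.903, 1.11, 0.938 and 0.967 CPM (2.93 ± 0.12).

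CCNB3, a B-type cyclin known for meiosis, rose from 0.520 ± 0.0379 to 4.79 ± 0.209 CPM (3.18 ± 0.12, adjusted p by limma-voom 3.95e-11). FCGBP, a large secreted mucin-like protein that binds the Fc part of IgG, rose from 0.267 ± 0.0542 to 2.80 ± 0.0808 CPM (3.36 ± 0.17). BRINP2, a neural gene inducible by BMP and retinoic acid, rose from 0.110 ± 0.0315 to 1.35 ± 0.161 CPM, CNBD2 from 0.111 ± 0.0458 to 1.02 ± 0.136 CPM, and the noncoding LINC00543 and CDIPT-AS1 from 0.0694 ± 0.0317 to 1.02 ± 0.169 and from 0.117 ± 0.0316 to 1.11 ± 0.108 CPM. Untreated levels of these 4 genes rest on few counts per library. CNBD2 also overlaps SCAND1 on the opposite strand. POLR2J2 is uncertain: it shares near-identical copies with other POLR2J genes, and its values ranged from 0.508, 0.906, 0 and 0.383 CPM in untreated libraries to 2.04, 1.96, 4.26 and 1.70 CPM in treated ones.

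The called falls of the same ranks, with log2 fold changes of -2.87 to -2.59, included genes that untreated cells expressed at moderate levels. CIZ1, a zinc finger protein that interacts with p21 and acts in DNA replication, stood at 9.18, 9.85, 8.37 and 8.85 CPM with 5-Ph-IAA and 56.1, 55.0, 60.3 and 59.2 CPM without, a log2 fold change of -2.67 ± 0.063 (limma-voom, adjusted p = 4.56e-13). It overlaps C9orf16 and DNM1 on the opposite strand. INPP5E, a phosphoinositide phosphatase of the primary cilium, stood at 2.53, 2.59, 2.14 and 2.35 CPM against 14.4, 14.9, 14.4 and 15.3 CPM (-2.62 ± 0.07). In both genes the treated libraries lay far below the lowest untreated one.

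HDDC3, a hydrolase of the HD domain family, fell from 19.4 ± 1.04 to 2.98 ± 0.129 CPM (-2.70 ± 0.089), and the RNA-binding protein RBM45 from 15.7 ± 0.689 to 2.62 ± 0.288 CPM (-2.59 ± 0.085). HDDC3 overlaps UNC45A on the opposite strand. ZBTB39, a BTB zinc finger protein, fell from 29.3 ± 1.41 to 4.01 ± 0.288 CPM (-2.87 ± 0.067). The remaining falls at these ranks were GPR160, an orphan G protein-coupled receptor (-2.76), C3orf33 (-2.76), the antisense RNA WASIR2 (-2.76), the noncoding FAM225A (-2.87) and the U2 small nuclear RNA pseudogene RNU2-64P (-2.63). RNU2-64P was the 1 gene of these 10 whose groups overlapped: its treated libraries stood at 0.385, 0.109, 8.72 and 7.44 CPM and its untreated ones at 13.7, 5.42, 8.69 and 6.72 CPM, and its call was lost in edgeR's quasi-likelihood test, in DESeq2 and without treated library 1 or 2.

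**Figure D2:**
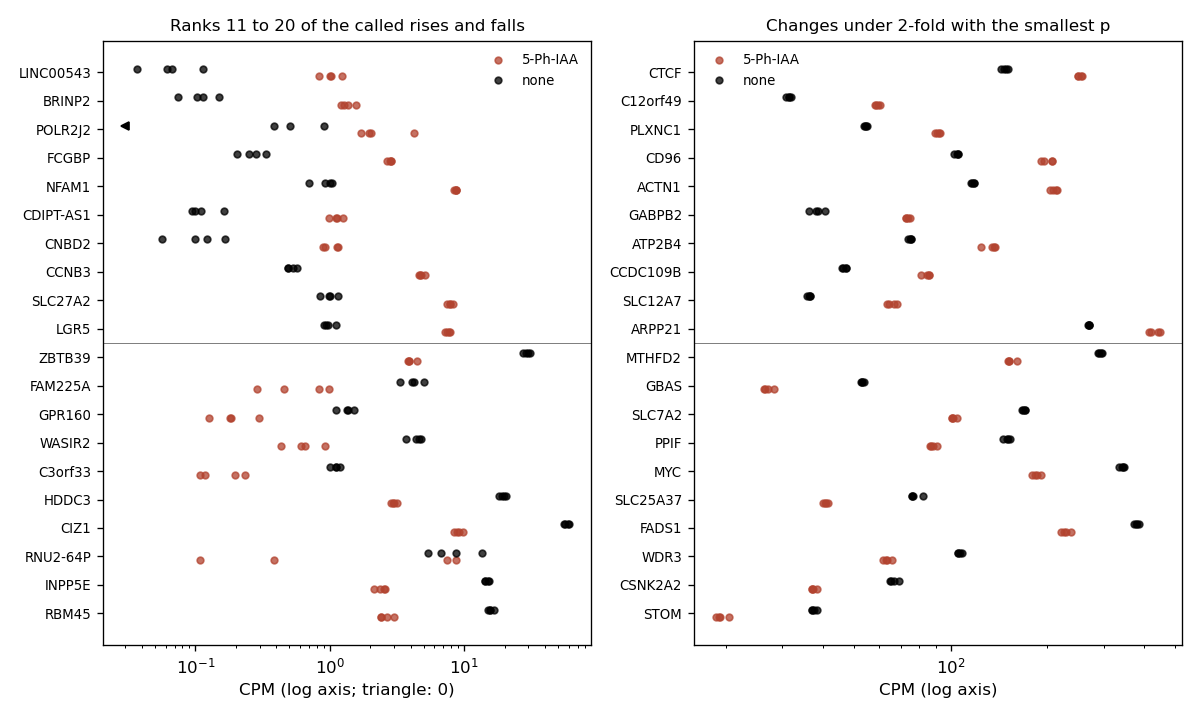
CPM on a log axis in each of the 4 treated (red) and 4 untreated (black) libraries, for the called genes at ranks 11 to 20 of the rises and falls (left) and for the protein-coding genes with the smallest p among changes of 1.41-fold to 2-fold (right). Red and black points of a gene do not mix except for RNU2-64P, and 1 untreated library of POLR2J2 stood at 0.

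Moderate changes, those of 1.41-fold to 2-fold, made up 720 rises and 586 falls. The 10 rises and 10 falls with the smallest p had groups that did not overlap. That choice favors abundant genes with little spread, and so favors groups that do not overlap. Among the rises were adhesion and cytoskeleton genes. ACTN1, which encodes the actin cross-linker alpha-actinin-1, stood at 205, 215, 208 and 214 CPM in treated libraries and 118, 117, 116 and 119 CPM in untreated ones (0.84 ± 0.029, limma-voom, adjusted p = 1.91e-11). CD96, an immunoglobulin superfamily receptor of T and NK cells, stood at 207, 191, 207 and 196 CPM against 102, 104, 105 and 105 CPM (0.94 ± 0.033). CD96 overlaps RP11-402J7.2 on the same strand. PLXNC1, the plexin that binds semaphorin 7A, rose from 54.3 ± 0.541 to 91.4 ± 1.52 CPM.

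Transporters and regulators formed the rest of these rises. ATP2B4, a plasma membrane calcium pump, rose from 74.7 ± 0.835 to 133 ± 6.01 CPM, CCDC109B, a subunit of the mitochondrial calcium uniporter, from 46.8 ± 0.793 to 84.2 ± 2.16 CPM, and SLC12A7, a potassium-chloride cotransporter, from 36.3 ± 0.456 to 65.5 ± 2.25 CPM. C12orf49 rose from 31.4 ± 0.491 to 59.2 ± 1.05 CPM and GABPB2, a subunit of the GA-binding protein complex, from 38.5 ± 1.83 to 73.5 ± 1.08 CPM. ARPP21, a cAMP-regulated phosphoprotein, rose from 269 ± 1.29 to 431 ± 16.2 CPM (0.68 ± 0.028).

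The moderate falls held metabolic and mitochondrial genes. MTHFD2, the mitochondrial folate enzyme of one-carbon metabolism, stood at 161, 152, 153 and 151 CPM with 5-Ph-IAA and 289, 293, 289 and 295 CPM without (-0.92 ± 0.026, limma-voom, adjusted p = 2.11e-12). PPIF, cyclophilin D of the mitochondrial permeability transition pore, stood at 86.0, 86.8, 88.2 and 90.8 CPM against 149.7, 153, 146 and 150.5 CPM (-0.77 ± 0.026). SLC25A37, the mitochondrial iron importer mitoferrin-1, fell from 77.5 ± 2.97 to 40.9 ± 0.711 CPM.

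FADS1, the delta-5 fatty acid desaturase, fell from 379 ± 6.43 to 227.7 ± 6.99 CPM (-0.74 ± 0.027); it overlaps FADS2 on the opposite strand, as MTHFD2 does SLC4A5, PLXNC1 does CCDC41 and CCDC109B does CASP6. SLC7A2, a cationic amino acid transporter, fell from 169 ± 1.90 to 102 ± 1.77 CPM and the membrane protein stomatin (STOM) from 37.5 ± 0.635 to 19.4 ± 0.800 CPM. CSNK2A2, a catalytic subunit of casein kinase 2, fell from 66.5 ± 1.99 to 37.5 ± 0.660 CPM and WDR3, a WD-repeat protein of ribosome assembly, from 107 ± 1.36 to 63.4 ± 1.72 CPM. GBAS, which overlaps MRPS17 on the same strand, fell from 53.1 ± 0.483 to 27.0 ± 0.880 CPM, and the transcription factor MYC from 342 ± 5.57 to 185 ± 5.18 CPM.

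Counted in CPM and not in folds, much of the loss lay in a few abundant transcripts, while the gain was spread over more genes. The genes past the adjusted p that rose changed by 55059.1 CPM in sum and those that fell by -67954.1. RN7SL1, a gene for the RNA of the signal recognition particle, accounted for -10882.8 of the latter and its copy RN7SL2 for -9418.8. Of the gain, 24650.9 CPM lay in the 1711 genes that rose by less than 0.25 on the log2 scale, and RN7SK alone gave 4183.0 of this. The libraries of RN7SL1 stood at 24396, 23717, 23440.2 and 29132 CPM with 5-Ph-IAA and 38839, 35607, 35398 and 34373 CPM without (-0.52 ± 0.06, limma-voom, adjusted p = 4.36e-06). RN7SL2, a near-identical copy, stood at 20854 ± 2994 against 30272 ± 2376 CPM; reads of these copies cannot be kept apart with certainty, and RN7SL2 no longer passed the test in DESeq2 or when any 1 library other than treated library 4 was left out. RN7SK, which inhibits the elongation factor P-TEFb, stood at 49936 ± 2467 against 45753 ± 2463 CPM with overlapping groups, and did not pass the test without untreated library 4. Together the RN7SK and RN7SL genes held 9.20 to 10.6% of the counts in treated libraries and 10.8 to 11.5% in untreated ones. With these genes left out before scaling, 518 genes were called, 494 of them among the 497.

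Among protein-coding genes the largest gains of CPM were in BCAT1 and in cytoskeleton genes. BCAT1, the cytosolic aminotransferase of branched-chain amino acids, stood at 2334, 2194, 2386 and 1987 CPM against 1349, 1388, 1391 and 1349 CPM (0.70 ± 0.047). FLNA, filamin A, rose from 898 ± 14.1 to 1376 ± 69.6 CPM and ACTG1, gamma-actin, from 2751 ± 30.8 to 3435 ± 111 CPM. The nuclear noncoding RNA MALAT1 rose from 2902 ± 44.02 to 3590.4 ± 443 CPM, with treated library 4 close to the untreated level. PAN3 overlaps the pseudogene EEF1A1P3 on the same strand, and its level of 4767 ± 418 against 4088 ± 102 CPM is uncertain. The largest losses were in the ribosomal proteins RPLP0 (2209.8 ± 102 against 2707 ± 77.9 CPM), RPL7 (1877 ± 89.2 against 2228 ± 85.2 CPM) and RPL4 (1792 ± 52.9 against 2124 ± 51.3 CPM) and in the chaperone HSP90AB1 (1096 ± 25.9 against 1432 ± 38.6 CPM).

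Gene families were described by how many tested members passed the adjusted p, beside 29.2% higher and 29.5% lower over all genes and a median of -0.0024; a value without a unit is a log2 fold change. Among DNA-binding factors, the large C2H2 zinc finger family was taken by the ZNF name pattern and not by protein domain. It stayed near the values over all genes: of 431 ZNF entries 112 were higher and 116 lower, with a median log2 fold change of 0.0001. ZNF788 and ZNF177 each have more than a single entry. ZNF593 fell (-1.38 ± 0.063) and ZNF558 rose (0.72 ± 0.036). Of 20 SCAN zinc finger genes, 8 were higher, ZSCAN2 among them (0.41 ± 0.041), and 2 lower. Of 36 BTB zinc finger genes, 10 were higher, ZBTB5 and ZBTB45 among them (0.48 and 0.73), and 11 lower.

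Among chromatin genes more members were higher than lower, by small amounts. Of 47 lysine methyltransferases and demethylases, 21 were higher and 9 lower (median 0.13); KDM2A, a histone H3K36 demethylase that binds CpG islands, stood at 119 ± 0.949 against 89.6 ± 3.72 CPM. Of 22 SWI/SNF subunits, 12 were higher and 5 lower (median 0.088). The ATPase SMARCA2 stood at 301 ± 9.65 against 189.6 ± 2.64 CPM (0.67 ± 0.027) and ARID1B at 184 ± 5.65 against 138 ± 5.78 CPM, while SMARCC2 fell (-0.32 ± 0.024). Of 28 Polycomb genes, 9 were higher, including EZH2 (0.23 ± 0.025), PCGF3 (0.27 ± 0.025) and CBX7 (0.51 ± 0.066), and 1 was lower. Among 14 genes of DNA methylation, DNMT3A rose (0.32 ± 0.03) and DNMT3B fell (-0.34 ± 0.05), and the dioxygenase TET2 rose (0.26 ± 0.039).

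In the transcription machinery, most RNA polymerase subunits were lower. Of 31 RNA polymerase genes, 6 were higher and 21 lower (median -0.15). POLR1B, the second largest subunit of polymerase I, stood at 85.3 ± 1.05 against 124 ± 3.66 CPM (-0.54 ± 0.028) and POLR3D of polymerase III at 44.3 ± 1.08 against 63.1 ± 0.506 CPM (-0.51 ± 0.028), while POLR1E, also of polymerase I, was called higher, 128 ± 2.46 against 63.6 ± 1.38 CPM (1.00 ± 0.027, limma-voom, adjusted p = 1.3e-12). Of 30 Mediator subunits 6 were higher and 5 lower, MED12L the most (0.60 ± 0.033).

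Genes of translation and growth held mostly falls. Of 49 translation initiation factor genes, 32 were lower and 5 higher (median -0.17); EIF4B stood at 769 ± 9.34 against 935 ± 17.0 CPM and EIF2S3 at 476 ± 10.6 against 575 ± 3.19 CPM, while EIF2AK3, the kinase PERK that the family's name pattern also holds, rose (0.35 ± 0.03). Of 83 cytosolic ribosomal protein genes 65 were lower and 1 was higher, RPL39L (0.85 ± 0.064). Of 78 mitochondrial ribosomal protein genes 62 were lower and 2 higher (median -0.25), with MRPS25 at 69.5 ± 3.42 against 99.5 ± 3.57 CPM and MRPL23 at 28.2 ± 1.34 against 42.4 ± 0.449 CPM. Of 52 DEAD and DEAH box helicases 29 were lower and 9 higher: DDX18 and DDX21, helicases of ribosome assembly, stood at 102 ± 0.858 against 155 ± 3.38 CPM and 265 ± 6.29 against 391 ± 6.16 CPM, and DHX30, which acts in mitochondrial ribosome assembly, at 61.1 ± 2.62 against 141 ± 2.34 CPM (-1.21 ± 0.036). Of 16 snoRNA host genes 12 were lower, including SNHG17 (-0.70 ± 0.038), SNHG15 (-0.39 ± 0.043) and SNHG16 (-0.27 ± 0.028). Of 47 proteasome genes 21 were lower and 1 higher, with the assembly chaperones PSMG3 and PSMG4 at -0.52 and -0.47.

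Enzymes of central metabolism also held mostly falls. Of 21 genes of the TCA cycle, the mitochondrial oxidation of acetyl-CoA, 15 were lower and 1 higher (median -0.21). DLAT, a subunit of pyruvate dehydrogenase, stood at 81.0 ± 2.45 against 125 ± 3.55 CPM (-0.63 ± 0.033), IDH3A at 35.8 ± 0.578 against 54.2 ± 1.05 CPM and SDHD at 82.7 ± 3.08 against 107 ± 3.33 CPM. Of 21 glycolysis genes 13 were lower and 2 higher, with HK2, hexokinase 2, at 102 ± 1.78 against 140.3 ± 1.64 CPM, PFKM at 39.1 ± 2.25 against 59.7 ± 0.666 CPM and ALDOC at 14.6 ± 0.292 against 23.1 ± 0.877 CPM. Of 12 genes of serine and one-carbon metabolism 10 were lower and 0 were higher (median -0.17), with the mitochondrial MTHFD1L and the cytosolic MTHFD1 at 39.2 ± 0.511 against 69.5 ± 1.49 CPM and 112 ± 3.07 against 154 ± 3.96 CPM. Of 26 nucleotide synthesis genes 14 were lower and 4 higher, with the purine enzymes PFAS and PAICS at -0.59 and -0.42. Of 38 complex I subunit genes 20 were lower and 3 higher, NDUFB7 among them (-0.50 ± 0.061).

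Several signaling and surface families held mostly rises. Of 34 MAP kinases and their activators 18 were higher and 3 lower, with a median of 0.13. Of 22 genes of leukocyte adhesion and homing 13 were higher and 3 lower, with the highest median of all families described (0.30). Of these 22, 3 were called higher and 1 called lower, and values ran from -2.14 to 1.49. ITGAM, the integrin alpha-M chain of myeloid cells, stood at 7.96, 9.11, 7.77 and 7.96 CPM against 2.82, 2.85, 2.92 and 3.03 CPM (1.49 ± 0.074), and the junctional adhesion molecules F11R and JAM2 at 55.2 ± 1.97 against 34.0 ± 1.67 CPM and 4.91 ± 0.430 against 1.82 ± 0.229 CPM. The chemokine receptor CCR7, named after its values were seen, rose (1.46). ITGAM is also on the myeloid list, on which LYZ fell (-0.97 ± 0.054).

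Of 46 CD antigen genes 24 were higher and 7 lower. Of these 46, 2 were called higher and 2 called lower, and values ran from -1.66 to 2.03. CD69, an early activation marker of lymphocytes, stood at 18.3 ± 0.591 against 8.33 ± 0.381 CPM (1.14 ± 0.051) and CD48 at 48.2 ± 1.40 against 31.0 ± 1.03 CPM. Of 18 semaphorin and plexin genes 10 were higher and 4 lower, PLXNB1 and SEMA6C at 0.57 and 0.69. Of 20 potassium channel genes 10 were higher and 4 lower: KCNS3 stood at 34.6 ± 0.522 against 16.8 ± 0.491 CPM, KCNMA1 at 17.2 ± 1.79 against 10.3 ± 0.247 CPM and KCNN4, the calcium-activated channel of lymphocytes, at 5.601 ± 0.291 against 10.5 ± 0.178 CPM. Interleukin receptor genes were divided, with 7 higher and 8 lower of 18 entries: IL2RG, the common gamma chain, stood at 48.3 ± 0.641 against 33.9 ± 0.870 CPM and IL9R at 1.97 ± 0.0850 against 4.71 ± 0.213 CPM. IL9R is listed under an identifier on each sex chromosome and shares its reads.

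The ABC transporters held 11 higher and 7 lower of 27. The 5 called genes all rose and all belong to the A subfamily of lipid transporters, a grouping made after their values were seen: ABCA1 (1.64), ABCA3 (1.33), ABCA5 (1.42), ABCA10 (1.98) and ABCA12 (1.05). ABCA5 stood at 24.5 ± 0.715 against 9.15 ± 0.394 CPM; it overlaps ABCA10 on the same strand. ABCF2, which acts on ribosomes and not in transport, fell (-0.53 ± 0.026), as did ABCC4 (-0.45 ± 0.03). Of 197 solute carriers 48 were higher and 80 lower; SLC35B2, the Golgi importer of the sulfate donor PAPS, stood at 5.27 ± 0.262 against 24.3 ± 0.653 CPM (-2.21 ± 0.051, limma-voom, adjusted p = 3.97e-13).

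Of 34 autophagy genes 15 were higher and 7 lower. GABARAPL1, an ATG8-family protein of the autophagosome membrane, stood at 20.8 ± 0.708 against 4.45 ± 0.235 CPM (2.22 ± 0.057), the initiating kinase ULK1 at 45.5 ± 2.67 against 28.6 ± 1.09 CPM and the receptor NBR1 at 66.8 ± 1.39 against 46.1 ± 0.786 CPM. Of 39 lysosome genes 16 were higher and 11 lower, with the proton pump subunit ATP6V1H at 0.48, the cholesterol transporter NPC1 at 0.33 and the acid ceramidase ASAH1 at -0.51. Of 41 genes of double-strand break repair 19 were higher and 13 lower, RAD51D and BARD1 at 0.49 and 0.35 and the kinase ATR at -0.29. In the Notch pathway 7 of 20 were higher and 5 lower; the coactivator MAML2 stood at 0.368 ± 0.0396 against 1.23 ± 0.287 CPM (-1.70 ± 0.21), MAML3 at -0.34 and the ligand JAG2 at 4.32 ± 0.489 against 2.54 ± 0.277 CPM. In the TGF-beta and BMP pathway 12 of 29 were higher and 8 lower, with the receptors TGFBR2 at 80.3 ± 3.09 against 53.1 ± 0.476 CPM and ACVR1 at 8.46 ± 0.300 against 5.08 ± 0.334 CPM and the mediator SMAD2 at 0.20.

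Most of the remaining families held rises and falls side by side, while kinesins leaned to rises and nucleoporins to falls. Of 46 RAB GTPases, regulators of vesicle traffic, 17 were higher and 11 lower, RAB15 at 0.50 ± 0.036 and RAB5B at 0.32 ± 0.031. Of 31 kinesins, motors along microtubules, 14 were higher and 4 lower, with KIF3C at 0.53 ± 0.035 and the mitotic KIF15 and KIF4A at 0.49 and 0.31. Of 15 tubulins 2 were higher and 4 lower, and TUBB2A fell the most, 3.50 ± 0.463 against 8.99 ± 0.702 CPM (-1.37 ± 0.089). Of 21 integrins 6 were higher and 4 lower, with ITGA5, the fibronectin receptor chain, at 0.39 ± 0.031 and ITGA6, a laminin receptor chain, at -0.55 ± 0.046.

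Among ubiquitin enzymes, 12 of 43 TRIM genes were higher and 11 lower, 17 of 49 F-box genes were higher and 10 lower, and 16 of 46 ubiquitin-specific proteases were higher and 15 lower. USP43 stood at 31.8 ± 0.996 against 16.8 ± 0.346 CPM (0.92 ± 0.039), USP45 at 15.1 ± 0.680 against 24.7 ± 1.32 CPM (-0.71 ± 0.048) and TRIM38 at 57.0 ± 1.98 against 40.3 ± 0.350 CPM. Of 20 nucleoporins 9 were lower, NUP35 and NUP93 among them (-0.34 and -0.30), and 1 was higher. Of 15 hypoxia targets 4 were higher and 7 lower: the growth factor VEGFA rose (0.53 ± 0.04), while the mTORC1 inhibitor DDIT4 (-0.34 ± 0.029) and the mitophagy receptor BNIP3 (-0.49 ± 0.046) fell. Of 12 meiosis and germline genes 4 were higher and 5 lower. Both called members rose. SYCE3 stood at 3.15 ± 0.307 against 0.0046 ± 0.0092 CPM (8.01 ± 0.38) and PRAME at 5.81 ± 0.445 against 0.037 ± 0.022 CPM (7.10 ± 0.52). Their untreated levels were at or near 0, so the size of these folds is uncertain. Of the CTCF-AID2 libraries, only treated ones held these genes above the filter. The spermatogenesis gene TEX15 stood at 32.2 ± 2.86 against 60.3 ± 2.10 CPM (-0.90 ± 0.054). Of 4 MAGE genes MAGED1 and MAGEF1 rose (0.22 and 0.24) and MAGEH1 fell (-0.26).

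**Figure D3:**
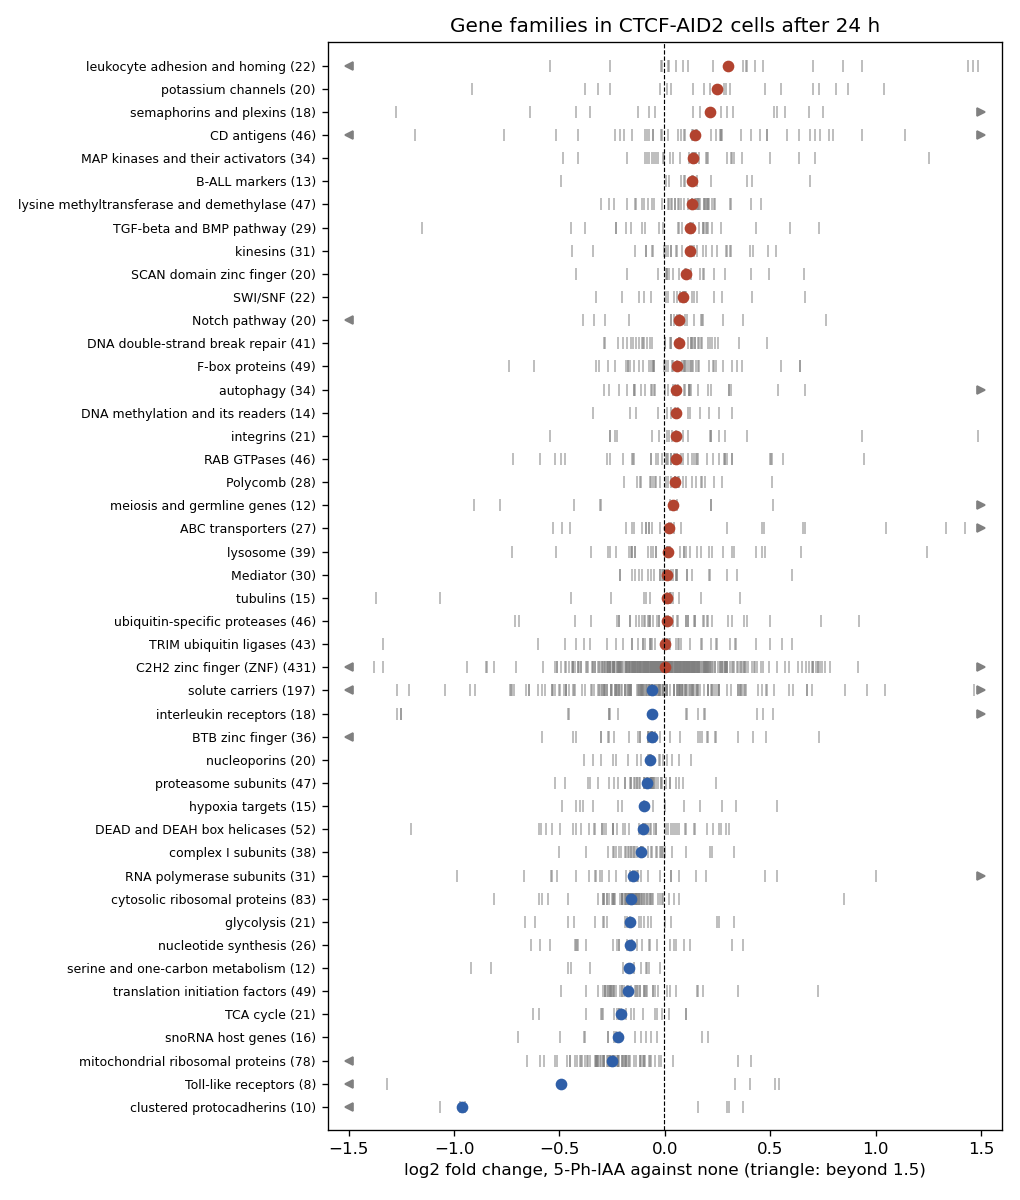
Log2 fold change of 5-Ph-IAA against none (horizontal axis) for families with at least 8 tested members (number in brackets): ticks are members, circles the median, red above and blue below the median of all genes (dashed line). Medians run from -0.96 for the clustered protocadherins to 0.30 for leukocyte adhesion and homing, while members spread widely around them.

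Several changes sat side by side on a chromosome. Pairs of called genes whose starts lie within 100 kb numbered 70, and 57 of them (81.4%) moved in the same direction, beside 56.0% of the 19805 pairs of tested genes at that distance and 59.4% of the 6782 pairs in which both passed the adjusted p. With overlapping genes left out, the share was 83.3% of 42 pairs. Pairs within 1 locus share genes, and the 481 called genes with a position formed 44 such loci of at least 2, holding 99 genes: 15 loci held rises, 19 held falls and 10 held both. The nearest tested gene that did not overlap was itself called in the same direction for 17 of 257 called rises (6.61%) and 24 of 224 called falls (10.7%), beside 1.86% for all tested genes. It passed the adjusted p in the same direction for 39.3% and 37.1%, beside 34.3%, and in the opposite direction for 28.4% and 25.4%, beside 25.8%. The median log2 fold change of this neighbor in the gene's direction was 0.046 for called rises and 0.03 for called falls, beside 0.038 for all tested genes.

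The metallothionein cluster on chromosome 16 (56642496 to 56718108, GRCh37), which encodes small proteins that bind zinc and copper, held 4 called falls. A locus takes in every called gene within 100 kb, so the neighbors around it are uncalled by construction. Of these neighbors, NUP93 also fell (-0.30 ± 0.039) and BBS2 did not pass the test (-0.11 ± 0.052). MT2A stood at 3.92, 3.72, 2.67 and 4.54 CPM with 5-Ph-IAA and 9.35, 9.06, 9.53 and 9.06 CPM without (-1.35 ± 0.11, limma-voom, adjusted p = 1.32e-07). MT1X stood at 5.26, 6.53, 6.26 and 7.07 CPM against 12.96, 12.1, 12.1 and 12.7 CPM (-1.01 ± 0.074). MT1E fell from 7.54 ± 0.247 to 3.49 ± 0.263 CPM and MT1F from 2.23 ± 0.177 to 1.01 ± 0.315 CPM. In all 4 genes, which were chosen as called, every treated library was below every untreated one, as in 26.6% of all tested genes. These genes are close paralogs, and reads can be split among them.

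On chromosome 4 (38773859 to 38858438), the Toll-like receptor genes TLR10, TLR1 and TLR6, which encode partners of TLR2 at the cell surface, were all called lower. TLR1 stood at 8.31, 8.36, 8.32 and 8.59 CPM against 26.6, 26.3, 25.9 and 24.9 CPM (-1.63 ± 0.051, limma-voom, adjusted p = 7.39e-12) and TLR6 at 3.48, 4.19, 4.09 and 4.19 CPM against 12.6, 13.7, 12.2 and 12.4 CPM (-1.68 ± 0.068). TLR1 and TLR6 overlap on the same strand, so their counts are not independent. TLR10, which overlaps neither, stood at 0.329 ± 0.136 against 4.86 ± 0.475 CPM. Of the other Toll-like receptors, on other chromosomes or in other regions, TLR3 was called lower (-1.32), while TLR4 (0.40) and TLR9 (0.54, listed under 2 identifiers) rose.

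On chromosome 22 (37514706 to 37711382), IL2RB, C1QTNF6 and CYTH4 were called higher. IL2RB, the beta chain of the interleukin 2 and 15 receptors, stood at 1.02, 1.02, 0.945 and 1.07 CPM against 0.263, 0.203, 0.286 and 0.267 CPM (1.96 ± 0.16). CYTH4, an exchange factor for ARF GTPases in blood cells, stood at 16.03, 17.1, 16.1 and 17.3 CPM against 7.79, 8.10, 7.89 and 9.13 CPM (1.01 ± 0.062) and C1QTNF6 at 8.04 ± 0.245 against 4.04 ± 0.362 CPM. RAC2, a hematopoietic GTPase gene between them, rose less, from 64.7 ± 1.34 to 97.9 ± 5.597 CPM (0.60 ± 0.055), and KCTD17 at the far side did not pass the test (-0.13 ± 0.076).

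The remaining loci mixed directions or shared reads. In the protocadherin gamma cluster on chromosome 5 (140739561 to 140892542), whose genes share their last exons, 5 genes of the variable part were called lower, PCDHGB2 (-2.69 ± 0.35), PCDHGA10, PCDHGB7, PCDHGA11 (-1.06 ± 0.12) and PCDHGB8P, all under 4 CPM, PCDHGA10 with overlapping groups, while PCDHGC3, PCDHGC4 and PCDHGC5 at the end of the cluster were higher by 0.29, 0.37 and 0.30. On chromosome 12 (49359123 to 49413024), WNT10B fell from 2.55 ± 0.193 to 1.20 ± 0.302 CPM, DDN and RP11-386G11.5 also fell, and PRKAG1, a subunit of the AMP-activated kinase, rose from 23.4 ± 1.27 to 48.8 ± 2.33 CPM; DDN and PRKAG1 each overlap RP11-386G11.5 on the opposite strand. On chromosome 1 (45140364 to 45196842), C1orf228 rose from 6.43 ± 0.227 to 13.4 ± 0.474 CPM and the U5 small nuclear RNA genes RNU5D-1 and RNU5F-1 were lower, RNU5F-1 with overlapping groups (1.08 ± 1.27 against 2.54 ± 1.75 CPM) and a call that was lost in edgeR's quasi-likelihood test, in DESeq2 and without treated library 1, treated library 2 or untreated library 1.

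**Figure D4:**
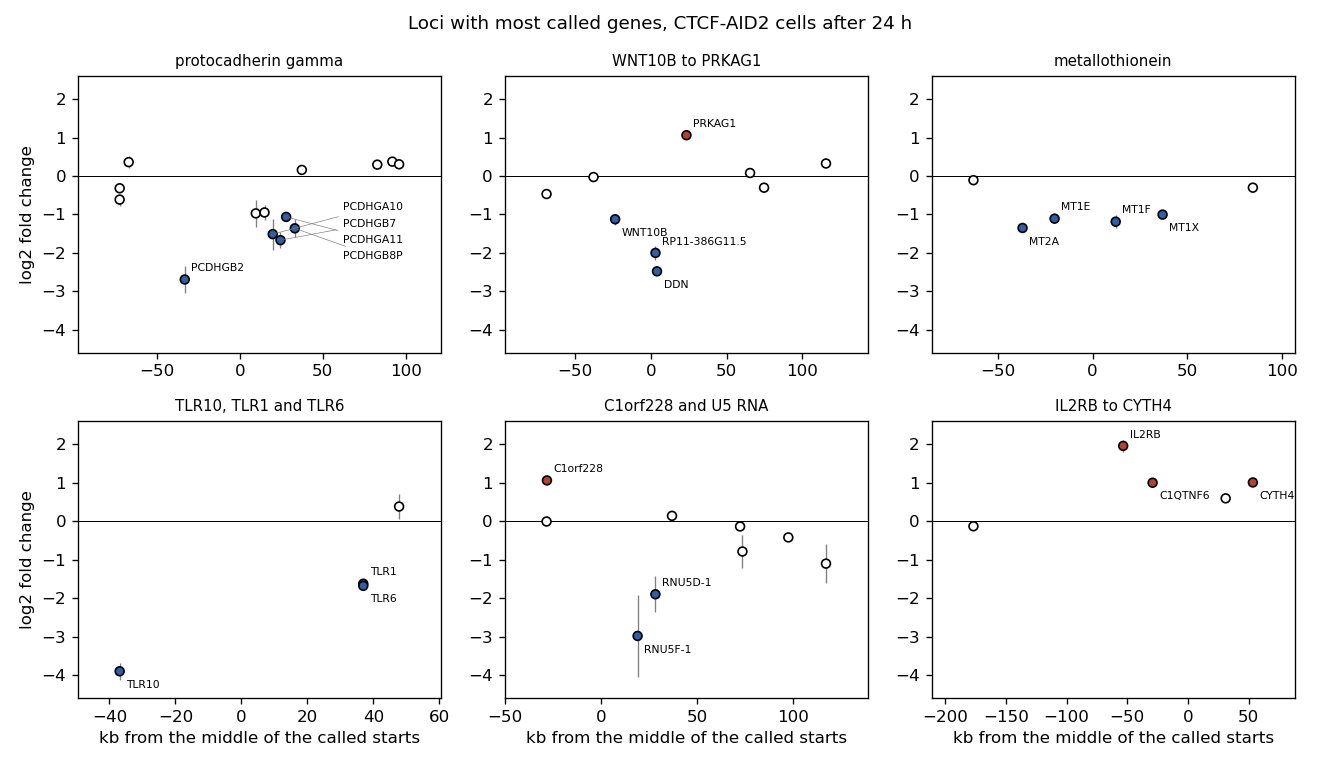
Log2 fold change with its standard error (vertical axis) of every tested gene that starts within 100 kb of the called genes of a locus, against the distance of its start from the middle of the called starts in kb (horizontal axis), for the 6 loci with most called genes. Filled points are called (red higher, blue lower) and open points are not. The 4 metallothionein genes lie between -1.35 and -1.01. Genes on both sides of a locus are uncalled by construction.

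The share of promoters with the CTCF core consensus was higher among called genes than among all tested genes, on small counts. The consensus, the core motif of 14 letters searched by name on both strands without a mismatch, was looked for from 250 bases before to 50 bases after the start of each gene's canonical transcript in GRCh37, which can lie inside the outermost gene boundary (the boundary itself was used where no canonical transcript is marked), for 13568 tested genes. It was present in 51 promoters (0.376%, Wilson 95% interval 0.286 to 0.494%). Among called falls it was in 5 of 224 (2.23%, 0.957 to 5.12%) and among called rises in 4 of 257 (1.56%, 0.607 to 3.93%), beside 12 of 5556 genes that did not pass the adjusted p (0.216%). Genes that changed under 2-fold held it in 22 of 3822 falls (0.576%) and 8 of 3709 rises (0.216%). With 1 mismatch allowed it was in 31 of 224 called falls (13.8%), 22 of 257 called rises (8.56%) and 460 of all 13568 (3.39%). The intervals cover counting error over genes only, and neighboring and paralogous genes are not independent.

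The 9 matched promoters of called genes are shown because they carry this finding. Each line gives 30 bases of the gene's strand, with the 14 matched bases in capitals. The first 5 genes fell and the last 4 rose.
C11orf45 (chr11:128775964-128775993, minus strand): aggattttCCACCAGGGGGCAGggctggga
FAM225A (chr9:115875286-115875315, plus strand): cccaacggCCAGCAGAGGGCGCgcgcctgg
FAM225B (chr9:115873818-115873847, minus strand): cccaacggCCAGCAGAGGGCGCgcgcctgg
ALKBH2 (chr12:109531360-109531389, minus strand): acgggaggCCAGCAGGTGGCACcagggggc
FLT3LG (chr19:49977399-49977428, plus strand): gcctctcaCCACCAGGGGGCGCgctccgcc
DIRC3 (chr2:218621433-218621462, minus strand): gctcccgcCCACCAGGGGGCAGtcttcacc
STAG1 (chr3:136471239-136471268, minus strand): caccgcggCCAGCAGAGGGCGGtccggacc
HINT3 (chr6:126277903-126277932, plus strand): gccattgcGCGCCCTCTAGTGGcagccggt
PRAME (chr22:22901698-22901727, minus strand): tgactctaGTGCCCCCTGCTGGccccagac

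In the 5 genes that fell the consensus read in the direction of the gene. FAM225A and FAM225B are paralogous noncoding genes with the same 30 bases, and count as 1 sequence. A match is a description of these letters and not of a bound site. ALKBH2, which repairs alkylated DNA, stood at 3.38, 3.79, 3.83 and 3.95 CPM with 5-Ph-IAA and 10.0, 10.3, 10.2 and 10.1 CPM without (-1.45 ± 0.069, limma-voom, adjusted p = 4.99e-10). C11orf45 stood at 0.212 ± 0.102 against 1.97 ± 0.336 CPM, FAM225A at 0.638 ± 0.325 against 4.19 ± 0.705 CPM and FAM225B at 0.497 ± 0.259 against 2.08 ± 0.517 CPM. FLT3LG, the ligand of the receptor FLT3, had a log2 fold change of -1.05.

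In 2 of the 4 genes that rose, HINT3 and PRAME, the consensus read against the gene. HINT3, a histidine triad hydrolase, stood at 58.9, 57.5, 58.7 and 48.2 CPM against 20.6, 22.1, 21.9 and 21.7 CPM (1.37 ± 0.06), with treated library 4 below the other 3 and above every untreated one. STAG1, a cohesin subunit, rose by a log2 fold change of 1.26 and the noncoding DIRC3 by 1.15. With 1 mismatch allowed, the first match read in the gene's direction in 30 of 31 called falls (96.8%) and 13 of 22 called rises (59.1%), beside 296 of 460 promoters of all tested genes (64.3%). The reference sequence was used, and whether CTCF was bound at these sites in SEM cells was not analysed here.

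**Figure D5:**
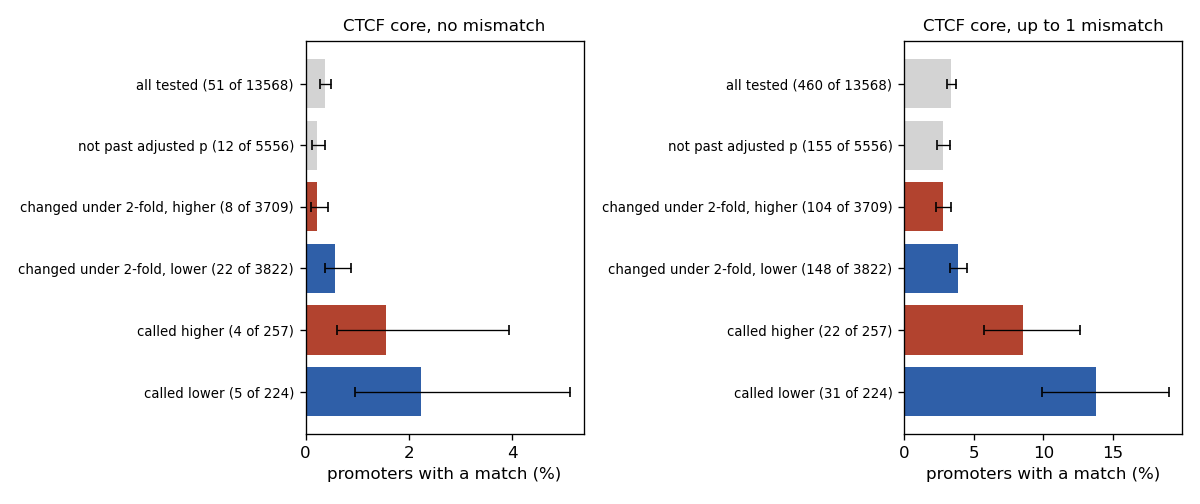
Share of promoters that hold the CTCF core consensus in percent (horizontal axes) with Wilson 95% intervals, without a mismatch (left) and with up to 1 mismatch (right), for tested genes grouped by their change with 5-Ph-IAA. Called falls stand at 2.23% and 13.8%, all tested genes at 0.376% and 3.39%.

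Long genes leaned to rises. When the 13568 genes with a position were divided into 5 bins by the length from start to end, the longest bin (87542 bases and more) held 82 called rises and 48 called falls, and 1086 genes higher and 670 lower past the adjusted p, with a median of 0.053. The shortest bin (up to 6855 bases) held 38 called rises and 54 called falls, and 551 higher and 726 lower, with a median of -0.039. Among 457 antisense genes 27 were called higher and 10 lower (8.10%), beside 3.45% of 11718 protein-coding genes. Over all tested genes 1.89% were called higher and 1.67% lower. The share of calls depends on level, which was not matched here. Strand use in counting is not given, so counts of antisense genes may hold reads of the genes they overlap. Among the autosomes, the share of tested genes that were higher past the adjusted p ran from 24.5% on chromosomes 2 and 18 to 36.3% on chromosome 15, with 35.0% on chromosome 22 and 34.7% on chromosome 17.

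These changes were set beside those of WT SEM cells given IAA and doxycycline for 24 h (2 libraries against 2). The compound, its dose and the cells all differ between the arms, so the cause of a difference cannot be told apart. Genes with a count that was not a whole number made up 2.73 to 2.82% in the WT libraries and 7.08 to 7.84% in the CTCF-AID2 libraries. Whether the counts of the arms were made alike was not tested. The difference of effects is a description here, since it contains the CTCF-AID2 effect by which the called genes were chosen, and the choice favored a high share. It passed an adjusted p of 0.05 in limma-voom for 239 of 264 called rises (90.5%) and 214 of 233 called falls (91.8%), in the direction of the CTCF-AID2 change. For genes past the adjusted p that changed under 2-fold the shares were lower, 1948 of 3817 rises (51.0%) and 2227 of 3886 falls (57.3%). Of all tested genes, 19.3% differed upward and 20.9% downward, which is no measure of what the choice alone gives. The median log2 fold change of the called rises in WT cells was 0.037 and that of the called falls 0.021. HSP90AB1, which fell by less than 2-fold in CTCF-AID2 cells, had a difference of -0.095 that did not pass the test, while MTHFD2 had a log2 fold change of -0.92 in CTCF-AID2 cells and 0.63 in WT cells, a difference of -1.55.

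The 6 h libraries of the series come from 4 lines, CTCF-AID2 cells that carry an inducible HA-tagged CTCF titled WT, DeltaZ1, DeltaZ10 or DeltaRBR, with and without auxin (16 libraries). The labels do not say whether the transgene was induced and give no dose for these libraries, and lines and times differ from those at 24 h. In the mean over these lines, 160 of 226 called rises measured there (70.8%) were past the adjusted p in the same direction, where 25.4% of all genes were higher, and 135 of 206 called falls (65.5%), where 26.4% were lower. The median change at 6 h was 0.48 for the called rises and -0.35 for the called falls, beside 1.36 and -1.41 at 24 h. Of the genes that changed under 2-fold at 24 h, 1439 of 3782 rises and 1363 of 3862 falls did so, while 750 of these rises and 613 of these falls passed in the opposite direction at 6 h. Of the called genes, 15 rises and 9 falls did. MYC stood at -1.22 at 6 h and -0.88 at 24 h, CIZ1 at -0.48 and -2.67, RBM45 at 0.035 and -2.59, and CD96 at 0.013 and 0.94. C1orf228, which rose at 24 h, was lower at 6 h (-0.57).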

How the data were processed

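Total RNA of SEM cells was sequenced, and the authors deposited gene-level expected counts (estimated counts) from RSEM 1.3.1, made after trimming with Trim Galore 0.6.3 and alignment to hg19 with STAR 2.7.9a, with Gencode annotation, per the labels and methods. The labels name a 3′ kit and the methods a stranded total RNA kit; strand use in counting is not given in the sources used here, so overlapping genes are uncertain. Estimated counts were rounded to whole numbers. The 92 spike-in rows held 0 counts and were left out.

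The tested genes had over 1 CPM in at least 1 library. All 24 h libraries entered limma-voom (limma 3.58.1, R 4.3.3) with TMM factors (edgeR 4.0.16) and 1 mean per cell line and treatment; p-values were adjusted by Benjamini-Hochberg. Called means adjusted p under 0.05 and at least 2-fold. edgeR's quasi-likelihood test and DESeq2 1.42.0 were alternatives. Depth was 49.3 to 59.8 M counts per library. Intervals are Wilson 95% and cover counting error only.

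Genes named were CTCF, the called rises and falls at ranks 11 to 20 by fold change with a mean of at least 1 CPM in the higher group (clone names left out), the 10 protein-coding rises and falls with the smallest p between 1.41-fold and 2-fold, the 6 largest rises and falls in CPM, up to 3 members per family by p, the members of 6 loci, and up to 6 called genes with a promoter match. Others were named after their values were seen. The members and lists were chosen with earlier results of these data known. Positions and promoter sequences are from GRCh37. Some genes and 1 family are not reported here.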

Additional observations from a re-analysis of the deposited data

Results flagged for a closer look

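In groups of 4 libraries, a library was marked when its gap to the nearest other was too large a part of the group's range by Dixon's 95% criterion. Of 436 groups of named genes examined, 28 (6.42%) were marked, where chance marks about 1 in 20. In treated library 1, the CPM of ZBTB39 (4.44), MTHFD2 (161) and TLR6 (3.48) stood apart from the other 3 libraries of the group. In treated library 2, the CPM of TRIM9 (5.91), PLXNB1 (82.3) and ITGAM (9.11) stood apart from the other 3 libraries of the group. In treated library 3, the CPM of POLR2J2 (4.26) and NBR1 (64.8) stood apart from the other 3 libraries of the group. In treated library 4, the CPM of RN7SL1 (29132), ITGA6 (24.1), SNHG16 (108), ASAH1 (48.4), DNMT3B (23.4) and HINT3 (48.2) stood apart from the other 3 libraries of the group. In untreated library 1, the CPM of ZSCAN2 (19.8), NDUFA6 (51.2), RPL26L1 (18.6), RPL36A (450), TUBE1 (13.2), BARD1 (111), RP11-386G11.5 (3.2) and RNU5F-1 (5.16) stood apart from the other 3 libraries of the group. In untreated library 2, the CPM of KCNS3 (17.6), MAGEH1 (17.5) and SYCE3 (0.0185) stood apart from the other 3 libraries of the group. In untreated library 3, the CPM of TRIM9 (8.57) stood apart from the other 3 libraries of the group. In untreated library 4, the CPM of SLC25A37 (81.9) and WNT10B (2.83) stood apart from the other 3 libraries of the group. Treated library 4 and untreated library 1, the libraries set apart on the second component, held 6 and 8 of these.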

How the results depend on the processing

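Without the filter on low counts the number of called genes rose to 1354 (782 higher, 572 lower) and the share of changes under 2-fold was 83.6%. With the stricter filter that share was 94.6%. The same-direction share of called pairs was 67.5% within 500 kb, and with 1 mismatch the promoter shares were 8.56% and 13.8%. Leaving out each library in turn gave 487 to 504 called genes (251 to 268 higher, 231 to 243 lower), 7624 to 8302 genes past the adjusted p, a share under 2-fold of 93.4 to 94.1%, a pair share of 80.9 to 84.4% and promoter shares of 1.52 to 1.63% and 1.71 to 2.23%. edgeR's quasi-likelihood test and DESeq2 each called 490 genes, 483 of them among the 497. Same-numbered libraries did not deviate together (correlations of -0.173, 0.039, 0.061 and -0.154), so the numbers were not taken as pairs; with the replicate block 483 genes were called and 7765 passed. Without treated library 4 and untreated library 1, a choice made after seeing the data, 501 genes were called, 471 of them shared. Of 3840 values of named genes under 18 alternatives 0 reversed and 29 no longer passed, in RNU2-64P, RNU5F-1, RN7SL2, RN7SK, CD33 and NKG7. Of 918 family medians 44 moved. Depth limits the genes under 1 CPM most.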
